A study of Mus musculus with 6 samples.

Results

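The DNA replication genes described here are 39 genes of S phase, chosen by symbol, that load and activate the replicative helicase, build the fork, join its fragments, supply nucleotides or switch these genes on. All 39 were among the 19831 genes listed for mouse inguinal adipose tissue (iAT), and all reached the minimum mean of 10 normalized counts used throughout, as did 15309 genes in all. The iAT, a subcutaneous white fat depot, was collected at postnatal day 6 from 3 wild-type samples and from 3 Npffr1-KO samples, which lack *Npffr1*, the gene of a receptor for neuropeptide FF. The labels name no treatment. How the gene was deleted, the strain, the sex and whether a sample was 1 animal or a pool are not given in the labels.

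Replication starts at origins that were licensed earlier in the cell cycle. The origin recognition complex, CDC6 and CDT1 load a double ring of MCM2-7, the helicase core, and geminin blocks a further round of loading. CDC45 and GINS then turn the ring into a moving helicase, primase and polymerase alpha lay down primers, and RFC loads the PCNA clamp that holds the main polymerases on DNA. Most of these genes are transcribed at the G1/S boundary under E2F control, so that their messages are abundant in dividing cells and scarce in mature adipocytes. In whole tissue, fewer cells in S phase and less of these RNAs per cell cannot be told apart.

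The authors' table gives 1 value per gene and genotype, in read counts normalized for library size, and the sums were 23137343 normalized counts in wild-type against 23640005 in Npffr1-KO. The ratio of both values is a moderated one, drawn towards 1 for genes with few reads. Up to a mean of 600 normalized counts, the whole reads of the 6 libraries could mostly be worked back from the listed values, which showed 3 wild-type and 3 Npffr1-KO libraries with size factors between 0.9165 and 1.038. This succeeded for 17 of the 39 replication genes. The libraries are called A, B and C within each genotype by falling size factor, and they could not be tied to the sample numbers. Nothing says that the samples came from separate litters, so that p-values measure only the spread between these libraries. The targeted gene was too low to check the labels. *Npffr1* had 1, 0 and 5 reads in wild-type libraries A, B and C and 0 in each Npffr1-KO library, where a count of 0 allows up to 3 reads per library. The defining adipocyte markers were abundant, with the 10 genes of that list between 3864 and 261767 normalized counts in wild-type.

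Of the 39 replication genes, 36 had a higher value in Npffr1-KO than in wild-type, as did 51.2% of all 15309 genes. The 3 others, *Orc6*, *Mcm10* and *Gins3*, lay within 0.05 of 0 on the log2 scale. A 1.2-fold higher value in Npffr1-KO was reached by 15 of the 39, against 16.8% of all genes, and a 1.2-fold lower value by 0, against 15.6% of all genes. Their median log2 ratio was 0.20, beside 0.01 over all genes, and the range ran from -0.05 for *Gins3* to 0.47 for *Mcm3*. The genotype values carry no spread, so that these ratios were not tested here, and no replication gene reached a 1.5-fold difference. Where reads per library could be recovered, 14 of 17 replication genes were highest in Npffr1-KO library A, as were 21.1% of all recovered genes, and the median log2 ratio of the library means fell from 0.17 with all libraries to 0.03 without that library.

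**Figure D1:**
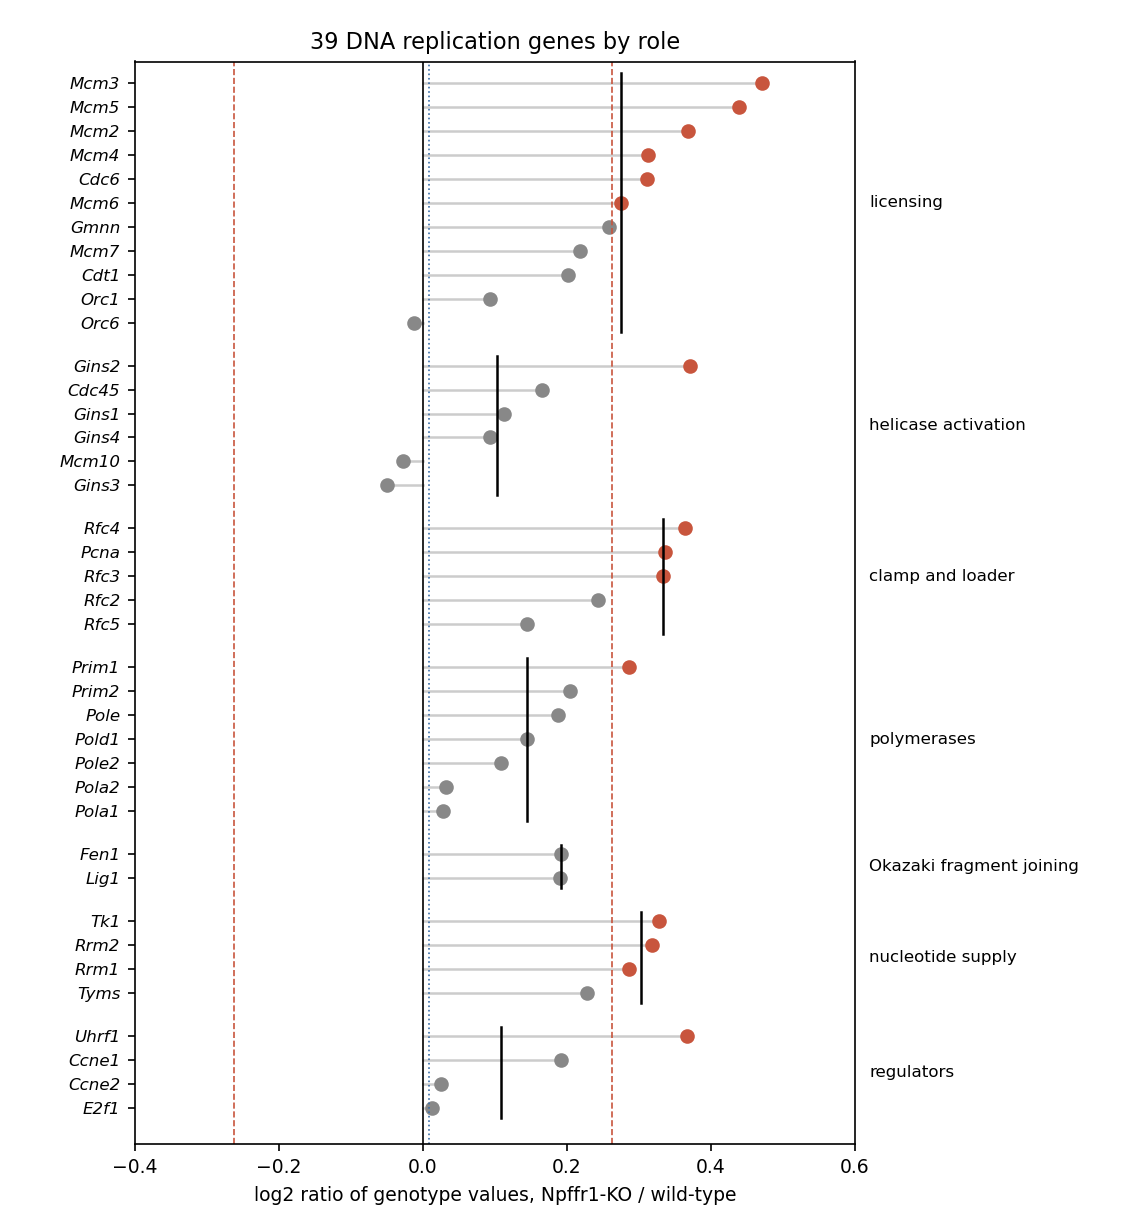
The log2 ratio of the authors' genotype values (Npffr1-KO over wild-type, horizontal axis) is plotted for each of the 39 genes, grouped by role, with genes at least 1.2-fold higher in red, other genes in grey, the 1.2-fold bounds as dashed lines, the median of all genes as a dotted line and the median of each role as a black bar. The highest medians are those of the clamp and its loader (0.33) and of nucleotide supply (0.30), and 3 genes lie left of 0.

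The licensing genes made up 11 of the 39, of which 10 were higher in Npffr1-KO and 6 at least 1.2-fold, with a median log2 ratio of 0.28. The helicase ring carried most of this. *Mcm3* had 1206 normalized counts in wild-type against 1671 in Npffr1-KO, a log2 ratio of 0.47 and the largest of the 39. *Mcm5* had 840 and 1140 (log2 ratio 0.44), and *Mcm2* 1049 and 1354 (0.37). *Mcm4*, with 992 in wild-type and 1232 in Npffr1-KO (0.31), and *Mcm6*, with 1530 and 1852 (0.28), were also past 1.2-fold. *Mcm7*, the subunit with the highest level per kilobase, had 1411 and 1642 (0.22), so that the 6 subunits of the ring all had a higher value in Npffr1-KO. None of the 6 had reads that could be recovered per library, and their ratios were not tested here. *Orc6*, a subunit of the origin recognition complex, was listed at 801 normalized counts in wild-type against 794 in Npffr1-KO, a log2 ratio of -0.01.

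The loaders and their inhibitor could be followed by library. *Cdc6* had 160, 176 and 194 normalized reads in wild-type libraries A, B and C and 228, 220 and 214 in Npffr1-KO libraries A, B and C. The groups did not overlap, and the Npffr1-KO libraries lay close together, at 221 ± 7.30 against 177 ± 16.6 (SD, n = 3 each). *Cdc6* had a fitted log2 fold change of 0.32 ± 0.13 (SE) and the smallest p of the 17 genes, 0.0480 before adjustment in limma, with a Benjamini-Hochberg adjusted p of 0.336. *Cdt1*, its partner in loading the ring, had 471, 481 and 473 normalized reads in wild-type and 651, 497 and 496 in Npffr1-KO. These groups did not overlap either, but libraries B and C lay just above the wild-type range and library A far above it. The reads of *Cdt1* were chosen among 302 combinations that match its mean, at a weight of 0.993, where at least 0.99 was required. The log2 ratio of *Cdt1* was 0.21 with all libraries and 0.06 without Npffr1-KO library A.

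*Gmnn*, which encodes geminin, had 218, 196 and 228 normalized reads in wild-type and 343, 202 and 230 in Npffr1-KO. Library A lay far above the other libraries, and the log2 ratio of the library means went from 0.27 to 0.01 without it. *Orc1*, the lowest of the 39 both in counts and per kilobase, had 62.8, 51.9 and 50.6 in wild-type and 77.1, 67.6 and 32.7 in Npffr1-KO. The Npffr1-KO libraries thus spanned the wild-type range on both sides, and the log2 ratio turned from 0.10 to -0.13 without library A.

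Helicase activation had the lowest median log2 ratio of the roles, 0.10, close to the 0.11 of the regulators. Of its 6 genes, 4 were higher in Npffr1-KO and 1, *Gins2*, was past 1.2-fold. *Gins2*, a GINS subunit, had 183, 149 and 229 normalized reads in wild-type and 250, 240 and 244 in Npffr1-KO. All Npffr1-KO libraries lay above all wild-type libraries, and without library A the log2 ratio was 0.37 in place of 0.39. Its limma fit gave 0.41 ± 0.18 (SE) with a Benjamini-Hochberg adjusted p of 0.364. Without wild-type library B, the lowest of the 6, its fitted log2 fold change was 0.25.

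The other GINS subunits had lower ratios than *Gins2*, a difference that was not tested. *Gins1* had 167, 132 and 173 normalized reads in wild-type and 190, 159 and 163 in Npffr1-KO, with overlapping groups. *Gins3* had 166, 153 and 163 in wild-type and 203, 112 and 148 in Npffr1-KO. Library A was the highest of the 6 and library B the lowest for *Gins3*, and its log2 ratio went from -0.05 to -0.30 without library A. *Gins4* had 764 normalized counts in wild-type against 815 in Npffr1-KO, a log2 ratio of 0.09, and no recovered reads.

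*Cdc45*, the other partner of the ring, had 354, 214 and 316 normalized reads in wild-type and 412, 305 and 280 in Npffr1-KO. The wild-type spread, 295 ± 72.3 (SD, n = 3), was wider than the difference to the Npffr1-KO mean of 333. *Mcm10*, which helps to start the fork, had 234, 214 and 233 in wild-type and 308, 197 and 161 in Npffr1-KO. Here library A lay above and libraries B and C below every wild-type library, and the log2 ratio of -0.03 became -0.34 without library A, in the limma fit -0.35 with a Benjamini-Hochberg adjusted p of 0.495.

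The clamp and its loader were higher in Npffr1-KO in 5 of 5 genes, with a median log2 ratio of 0.33 and 3 genes past 1.2-fold. *Pcna*, the sliding clamp, had 2123 normalized counts in wild-type against 2680 in Npffr1-KO (log2 ratio 0.34) and was the most abundant of the 39. *Rfc3*, with 378 and 476 (0.33), and *Rfc2*, with 916 and 1085 (0.24), also had no recovered reads. *Rfc4* had 148, 155 and 135 normalized reads in wild-type and 199, 152 and 219 in Npffr1-KO. It was 1 of 3 genes not highest in library A, its highest value being in library C, while library B lay within the wild-type range. The fitted log2 fold change of *Rfc4* was 0.37 ± 0.17 (SE) with a Benjamini-Hochberg adjusted p of 0.383 in limma. *Rfc5* had 446, 430 and 461 in wild-type and 564, 400 and 519 in Npffr1-KO, so that libraries A and C were above and library B below the wild-type range.

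Of the 7 polymerase and primase genes, all were higher in Npffr1-KO, but only *Prim1* was past 1.2-fold, and the median log2 ratio was 0.14. *Prim1*, the catalytic primase subunit, had 327, 249 and 282 normalized reads in wild-type and 460, 272 and 325 in Npffr1-KO. Libraries B and C lay within the wild-type range, and the log2 ratio of *Prim1* fell from 0.30 to 0.06 without library A. *Prim2*, the other primase subunit, had 390, 344 and 436 in wild-type and 416, 445 and 491 in Npffr1-KO. For *Prim2* library A was the lowest of the Npffr1-KO libraries, and its log2 ratio was 0.21 with and 0.26 without it. The fitted log2 fold change of *Prim2*, 0.21, was 0.13 without wild-type library B.

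*Pola1*, the catalytic subunit of polymerase alpha, had 257, 270 and 253 normalized reads in wild-type and 312, 233 and 250 in Npffr1-KO. *Pole2*, a subunit of polymerase epsilon, had 228, 220 and 229 in wild-type and 296, 225 and 211 in Npffr1-KO. In both genes only library A exceeded all wild-type libraries, and both log2 ratios were below 0 without it, at -0.11 for *Pola1* and -0.05 for *Pole2*. *Pola2*, *Pole* and *Pold1* had no recovered reads. Their log2 ratios were 0.03 for *Pola2*, the accessory subunit of polymerase alpha, with 1153 normalized counts in wild-type against 1179 in Npffr1-KO, 0.19 for *Pole*, the catalytic subunit of polymerase epsilon, and 0.14 for *Pold1*, that of polymerase delta.

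*Fen1*, the flap nuclease, and *Lig1*, the ligase, finish the lagging strand. *Fen1* had 484 normalized counts in wild-type against 553 in Npffr1-KO, and *Lig1* had 1018 and 1162, both with a log2 ratio of 0.19. Nucleotide supply was higher in 4 of 4 genes, with 3 past 1.2-fold. *Rrm1* had 1298 normalized counts in wild-type against 1583 in Npffr1-KO (0.29) and *Rrm2* 753 and 939 (0.32), the subunits of ribonucleotide reductase moving by like amounts. *Tk1*, the thymidine kinase of S phase, had 739 and 927 (0.33), and *Tyms*, which makes thymidylate, had 957 and 1121 (0.23).

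Among the regulators the ratios parted. *Uhrf1*, which brings the maintenance methyltransferase to replicated DNA, had 958 normalized counts in wild-type against 1235 in Npffr1-KO (0.37), while *E2f1*, a transcription factor that drives these genes, had 776 and 783 (0.01). *Ccne1*, a cyclin E gene, had 304, 259 and 315 normalized reads in wild-type and 376, 301 and 331 in Npffr1-KO, with libraries A and C above the wild-type range. *Ccne2*, its paralog, had 139, 167 and 204 in wild-type and 190, 199 and 131 in Npffr1-KO. The groups overlapped, with the highest value of *Ccne2* in wild-type library C and the lowest in Npffr1-KO library C.

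Across the 17 genes with recovered reads, limma called 0 at a Benjamini-Hochberg adjusted p of 0.05, where it called 0.0416% of the 7219 recovered genes, that is 1 higher and 2 lower. At an unadjusted p under 0.05 it found 1 of the 17 higher in Npffr1-KO, *Cdc6*, against 6.61% of all recovered genes. The adjusted p-values of the 17 ran from 0.336 to 0.986, and the SE of their fitted log2 fold changes from 0.13 to 0.33. A 1.2-fold difference is 0.263 on this scale, a value that lay within the 95% interval of each of the 17. This interval ran from 0.0037 to 0.64 for *Cdc6*, from -0.18 to 0.56 for *Cdt1* and from -0.67 to 0.51 for *Mcm10*, and all intervals but that of *Cdc6* held 0. Groups without overlap, with Npffr1-KO higher, were found in 3 of the 17, *Cdc6*, *Cdt1* and *Gins2*, against 10.8% of all recovered genes.

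Npffr1-KO library A stood apart from the other 5 libraries. It was the highest of the 6 libraries for 14 of the 17 replication genes, or 82.4%, beside the 21.1% of all 7219 recovered genes. Its median level was 120% of a gene's mean over the 6 libraries, compared with 95.8% in Npffr1-KO library B and 97.5% in library C, and with 96.8%, 90.8% and 98.2% in wild-type libraries A, B and C. Library A exceeded every wild-type library in 15 of the 17 genes, against 34% of all recovered genes. Npffr1-KO library B did so in 5 (26.5% of all) and lay below every wild-type library in 4 (27.9% of all). Library C exceeded them in 8 (29.9% of all) and lay below them in 6 (37% of all). The positions of library B, and the count of library C below the wild-type range, were thus near those of all recovered genes. The mean was higher in Npffr1-KO for 15 of the 17 with all libraries (48.3% of all recovered genes) and for 10 without library A (46.2%).

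The number of genes past 1.2-fold by library means was 5 with all libraries (*Cdc6*, *Gins2*, *Rfc4*, *Prim1* and *Gmnn*, which was just short of it by the genotype values), against 20.1% of all recovered genes. It was 4 without Npffr1-KO library A (*Cdc6*, *Gins2*, *Rfc4* and *Prim2*), against 19.2%, so that the share among the replication genes was then near that of all genes. The count was 2 without wild-type library B, and 8 without either Npffr1-KO library B or library C. The share of all recovered genes was not computed for these settings, so that these counts cannot be set against it. The median log2 ratio over the 17 genes, 0.17 with all libraries, stayed between 0.12 and 0.23 when any library other than Npffr1-KO library A was left out. The other 22 replication genes have no value per library, so that the share of library A in the ratios of *Pcna* or the MCM2-7 ring is not known.

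**Figure D2:**
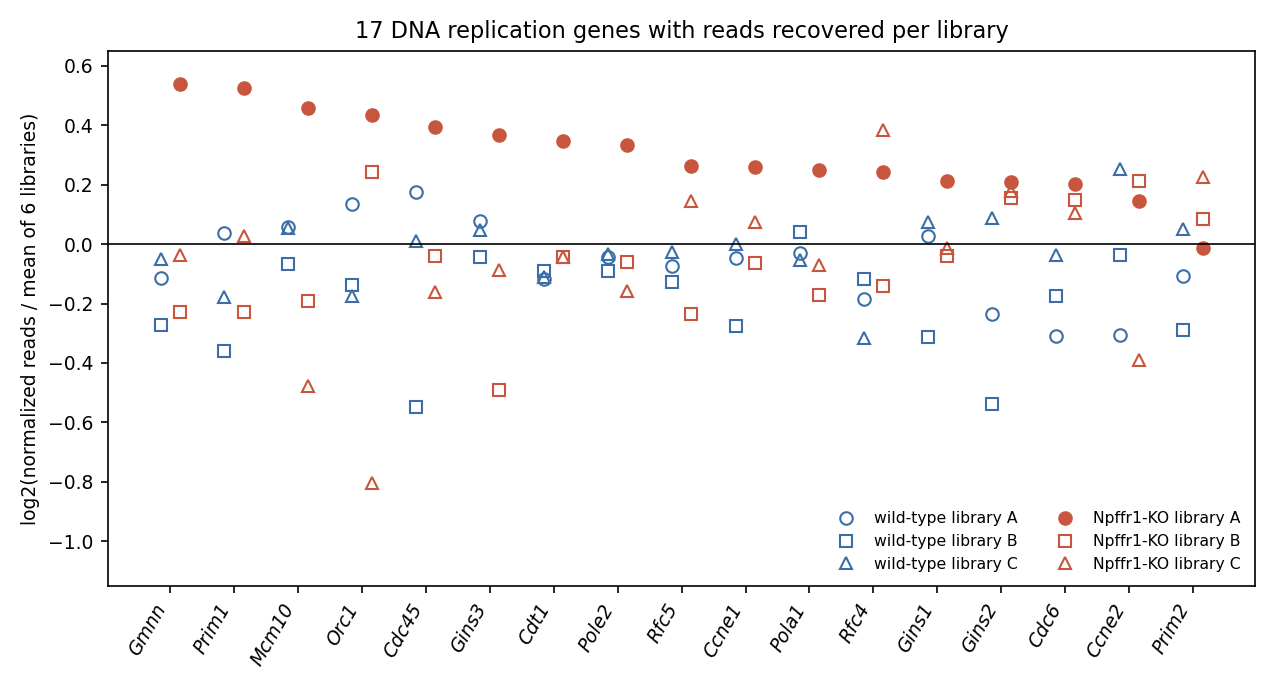
For each of the 17 genes with recovered reads (horizontal axis), the log2 of the normalized reads in each library over the mean of the 6 libraries is plotted, with wild-type libraries in blue and Npffr1-KO libraries in red. Npffr1-KO library A (filled circles) is the highest of the 6 in 14 genes, and the open red symbols scatter above and below the wild-type libraries.

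The same library stood out in other replication genes. The 3 lists of 67 further genes for licensing and helicase activation, for the fork, clamp and polymerases, and for nucleotide supply gave 31 genes with recovered reads. Npffr1-KO library A was highest in 20 of these 31, against 21.1% of all recovered genes. The median log2 ratio of library means of the 31 genes fell from 0.22 to 0.07 without library A. By list, this median went from 0.25 to 0.17 in 20 fork, clamp and polymerase genes. It went from 0.09 to -0.07 in 9 licensing and helicase activation genes, and from 0.15 to 0.08 in 2 nucleotide supply genes. In 7 of the 31, all Npffr1-KO libraries lay above all wild-type libraries, against 10.8% of all recovered genes. By the genotype values, 54 of the 67 were higher in Npffr1-KO and 23 were past 1.2-fold, with 1 past 1.2-fold lower and a median log2 ratio of 0.19. The lists differed. The 16 other licensing and helicase activation genes had a median of 0.02, with 1 past 1.2-fold higher, and their most abundant genes *Topbp1* (-0.13), *Mcmbp* (0.10) and *Orc3* (-0.07) lay on both sides of 0. The 33 other fork, clamp and polymerase genes had a median of 0.22 with 12 past 1.2-fold higher, and the 18 other nucleotide supply genes a median of 0.29 with 10 past 1.2-fold higher. Licensing and helicase activation genes outside the 39, most origin recognition complex subunits among them, thus had a median near that of all genes. Their single ratios ran from -0.14 to 0.33. Differences between lists were not tested.

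The lists for mitosis and G1/S control had lower median ratios than the replication genes, a difference that was not tested, and G1/S control held single genes with larger ratios. Of 22 genes of mitosis 19 were higher in Npffr1-KO and 5 past 1.2-fold, with a median log2 ratio of 0.12, and *Mki67*, the marker of dividing cells, had 3255 normalized counts in wild-type against 3529 in Npffr1-KO (0.12). All 3 mitosis genes with recovered reads were highest in Npffr1-KO library A, against 21.1% of all recovered genes. Of the 12 G1/S control genes with recovered reads, 6 were highest in library A. Their median log2 ratio of library means went from -0.0043 to -0.11 without library A. Of 31 genes of G1/S control, 5 were past 1.2-fold higher and 2 lower, with a median of 0.02. Past 1.5-fold were *Cdkn1c*, an imprinted inhibitor of cyclin-dependent kinases, with 5234 normalized counts in wild-type against 2761 in Npffr1-KO (-0.92), *Cdkn2c*, with 2366 and 3666 (0.63), and *Cdkn2a*, with 13.5 and 20.7 (0.62).

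Markers of other cell types also differed between the genotype values, which carry no spread, and these differences were not tested. All 8 T cell markers were past 1.2-fold higher in Npffr1-KO, with a median log2 ratio of 0.64, and their summed level was 8865 normalized counts in wild-type against 13956 in Npffr1-KO. The 6 B cell markers had a median of 0.26, with 3 past 1.2-fold, and a sum of 10278 and 12089. The erythroid list had a median of 0.44 over the 6 of 7 genes that passed the minimum, with 4 past 1.2-fold higher and 1 lower. Of the 5 thymocyte markers 3 were below the minimum mean, with *Rag1* at 4.85 and 5.42 normalized counts in wild-type and Npffr1-KO, *Rag2* at 8.10 and 6.19 and *Dntt* at 2.11 and 1.81. *Ptcra* was at 20.6 and 23.7 and *Cd1d1* at 2695 and 2909, both short of 1.2-fold. *Cd1d1* lay far above the rest of this list, and whether it stands for thymocytes in this tissue was not tested. Skeletal muscle markers were low and past 1.2-fold higher in 5 of 5 genes, with a sum of 415 and 809, the myosin gene *Myh4* being at 0.157 and 0.164. Endothelial markers were past 1.2-fold lower in 5 of 8 genes and higher in 0 (median -0.32). Progenitor markers were past 1.2-fold lower in 3 of 10 and higher in 1 (median -0.13). The adipocyte list had 1 of 10 past 1.2-fold higher and 1 lower (median 0.06). The macrophage list had 3 of 8 higher and 1 lower (median 0.11). Of all genes with the minimum mean, 16.8% were past 1.2-fold higher and 15.6% lower. The sum of the 6 skin and mammary epithelium markers was 143 in wild-type against 142 in Npffr1-KO. The part of any of these cell types in the replication genes was not tested, and none of the T cell markers had recovered reads that would show the level in library A.

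The ratio of the genotype values also moved with gene length. Over all genes, the median log2 ratio fell from 0.27 in the shortest of 20 length classes, with a median length of 656 bases, to -0.15 in the longest, with a median of 8973 bases. The clamp and loader genes are short, with a median of 1260 bases, and their median of 0.33 became 0.16 when each gene was set against the median of its length class. The licensing genes have a median of 3027 bases and kept 0.30 on that scale. The median of the helicase activation genes, whose median length is 1635 bases, went from 0.10 to 0.0059. *Pole*, the longest of the 39 with 7167 bases, went from 0.19 to 0.31, and *Gins2*, with 1061 bases, from 0.37 to 0.16. Over all 39 the median was 0.16 after this centring, and 10 genes in place of 15 were past 1.2-fold, against 11.7% of all genes. What lies behind the trend with length was not tested.

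**Figure D3:**
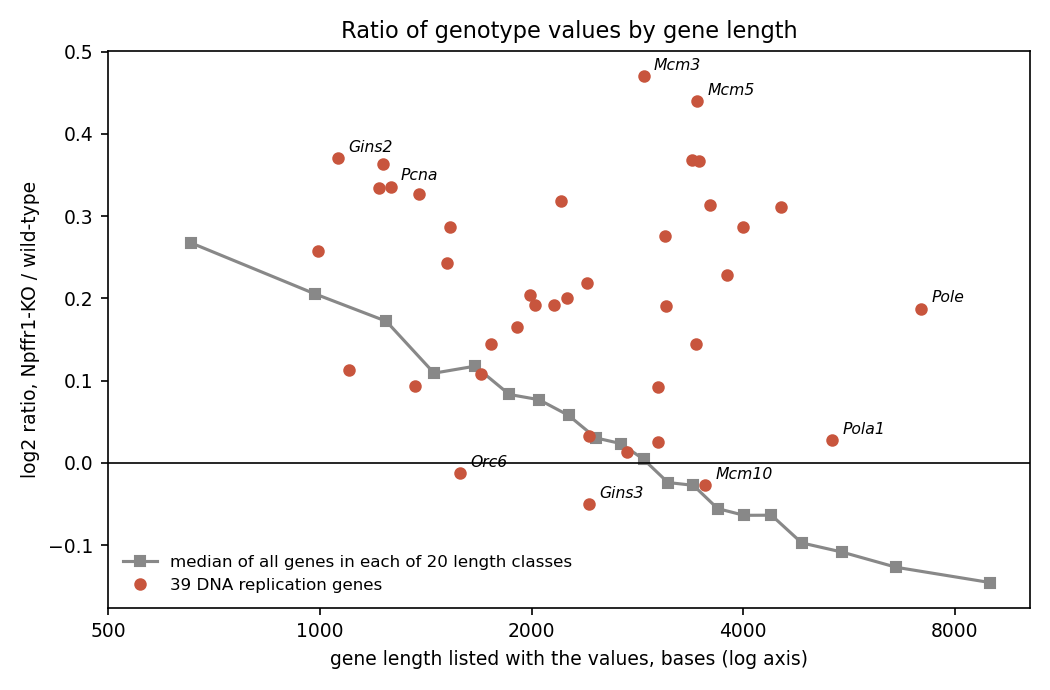
The log2 ratio of the genotype values (vertical axis) is plotted against gene length in bases (log axis) for the 39 genes in red, with the median of all genes in each of 20 length classes in grey. The grey line falls from 0.27 to -0.15, and *Mcm5* and *Mcm3* lie farthest above it, 0.47 above the median of their class.

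Levels of different genes were compared as normalized counts per kilobase of listed gene length, in wild-type. They ran from 18.3 for *Orc1* to 1685 for *Pcna*, with a median of 244, which was the level of *Mcm5*. *Pcna* exceeded 93.1% of all genes with the minimum mean on this scale and *Orc1* exceeded 12.1%. Within the MCM2-7 ring, whose subunits are present in equal number, the levels stayed within 2.41-fold of each other, from 244 for *Mcm5* to 589 for *Mcm7*. The order of the 6 was the same in Npffr1-KO, where the range narrowed to 2.07-fold. GINS also holds its subunits in equal number, but its messages spanned 8.43-fold, from 66.4 for *Gins3* over 143 for *Gins1* and 178 for *Gins2* to 560 for *Gins4*. The loader subunits RFC2-5 spanned 5.06-fold, from 119 for *Rfc4* to 604 for *Rfc2*.

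Polymerase alpha and primase spanned 9.82-fold, from 48.6 for *Pola1* to 477 for *Pola2*, and the subunits of ribonucleotide reductase lay closest, with 325 for *Rrm1* and 342 for *Rrm2*. In helicase activation *Mcm10* was the lowest at 64.2, and in licensing *Cdc6*, at 39.1, was next to *Orc1*. *Lig1* had 327 and *Fen1* 225, and in nucleotide supply *Tk1* had 535 and *Tyms* 252. Of the regulators *E2f1* had 284 and *Ccne2* 56.3. These values depend on the listed length, which is 1 per gene, and have no spread, so that neighbours in this order cannot be set apart.

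**Figure D4:**
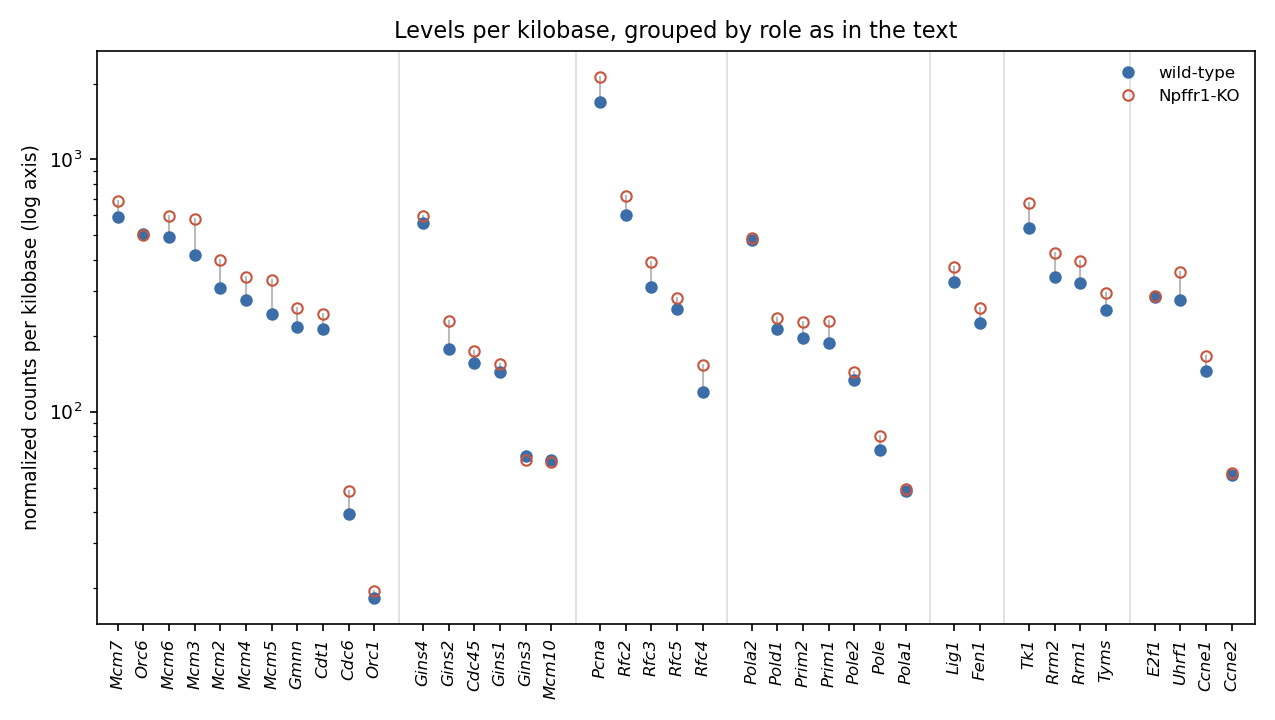
Normalized counts per kilobase (vertical log axis) in wild-type (filled blue) and Npffr1-KO (open red) are plotted for the 39 genes, with vertical lines between the roles in the order licensing, helicase activation, clamp and loader, polymerases, Okazaki fragment joining, nucleotide supply and regulators. *Pcna* at 1685 in wild-type and *Orc1* at 18.3 mark the ends, and the difference between genotypes is small beside that between genes.

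Promoters were looked at because these genes are known as a shared target set of E2F. RefSeq windows of 250 bases before to 50 after a transcript start, in build GRCm38.p6, were at hand for 30 of the 39 genes. The E2F words searched on both strands were TTTGGCGC, TTTCCCGC, TTTGCCGC and TTTCGCGC, which can overlap each other. At least 1 of them was found in 14 of the 30 genes, or 46.7%, and in 2.60% of the 27025 genes with such a window (2.26% of 32851 windows). The CCAAT box, searched as CCAAT on both strands, was found in 17 of the 30 and in 41.1% of all genes, and the GC box GGGCGG in 23 of the 30 and in 38.2%. The windows of 30 bases shown here, 5′ to 3′ on the strand of the gene with the word in capitals, come from the gene with the highest ratio, from other licensing and clamp loader genes, and from the gene with the lowest ratio.
*Mcm3*: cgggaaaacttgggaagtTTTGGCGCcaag
*Mcm5*: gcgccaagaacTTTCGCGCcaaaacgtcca
*Mcm6*: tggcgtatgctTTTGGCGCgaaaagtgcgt
*Mcm7*: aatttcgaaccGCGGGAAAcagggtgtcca
*Cdc6*: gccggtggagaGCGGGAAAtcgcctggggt
*Orc1*: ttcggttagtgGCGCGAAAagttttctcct
*Rfc3*: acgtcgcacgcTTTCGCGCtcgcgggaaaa
*Gins3*: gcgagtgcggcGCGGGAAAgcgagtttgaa

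These windows lie at chr1:20820263-20820292 on the minus strand for *Mcm3*, chr8:75109345-75109374 on the plus strand for *Mcm5*, chr1:128359797-128359826 on the minus strand for *Mcm6* and chr5:138172030-138172059 on the minus strand for *Mcm7*. That of *Cdc6* is chr11:98908002-98908031 (plus), that of *Orc1* chr4:108579416-108579445 (plus), that of *Rfc3* chr5:151651200-151651229 (minus) and that of *Gins3* chr8:95633507-95633536 (plus). Positions are counted from the transcript start on which each window is set, which for *Mcm5*, *Mcm7*, *Cdc6* and *Orc1* lies inside the outermost start that RefSeq lists for the gene. The word began at position 39 in *Mcm3*, -153 in *Mcm5*, -110 in *Mcm6*, -165 in *Mcm7*, -138 in *Cdc6*, -27 in *Orc1*, -10 in *Rfc3* and -41 in *Gins3*. *Mcm6* held the same word again at position -47. Other words of the search began at 20 in *Mcm3*, -149 in *Mcm5*, -106 in *Mcm6*, 17 in *Mcm7* and 1 in *Rfc3*. Only the word at the position given first for each gene is in capitals. The 14 genes with a word had a median log2 ratio of 0.21 and a range from -0.05 to 0.47, and the 16 without one had the same median of 0.21 and a range from -0.03 to 0.37. Presence of a word thus did not separate genes with higher ratios from genes with lower ones. The word is a match of letters, and whether E2F binds there in this tissue was not measured.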

How the data were processed

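RNA sequencing of iAT at postnatal day 6 was analysed in 3 wild-type and 3 Npffr1-KO samples, grouped by their labels. The authors deposited a signal, read counts normalized for library size, as 1 value per gene and genotype, and the gene length in bases. Per the submitters' processing notes Bowtie2, RSEM and DESeq2 were used. For versions, genome build and annotation the sources used here give nothing. The table also holds the authors' own fold changes and p-values, and a second table lists genes selected by them. Neither was used, although the ratio of both genotype values is itself a moderated estimate of the authors.

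The 39 genes and all lists were chosen with earlier results of these data known. Ratios were described for genes whose mean was at least 10 normalized counts, with a fold of 1.2.

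The mean of both genotype values is the mean over 6 libraries of whole reads divided by size factors. Genes with a single read gave the 6 size factors, and the genotype of a library is that of the column its single reads raise. All combinations of whole reads matching the mean to the 15 digits given were searched for genes with a mean of up to 600. Above a mean of 70, where several can match, a combination was kept if its weight, from the ratio and the spread usual for such genes, was at least 0.99. Reads were kept for 97.8% of genes with a mean of 100 to 200 and for 67.5% at 500 to 600. The search was tested on simulated data. Among the 17 recovered replication genes the log2 ratio of the library means differed from that of the genotype values by at most 0.019. The ratio of the genotype values entered the weight above a mean of 70. This closeness was thus partly built in and does not test the recovered reads.

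Recovered genes with a mean of at least 10 (7219) were tested with limma 3.58.1 in R 4.3.3 on log2(normalized reads + 1), with genotype as the only term and Benjamini-Hochberg adjustment at 0.05. A fold change on this scale understates that of low genes. The limma step was tested on simulated data. As listed reads stand for fragments without molecular identifiers, counting limits cover counting error only.

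Named genes are all 39, with values in full for those past 1.2-fold, those with the highest or lowest level per kilobase in each role, and those with recovered reads. Of other lists at most the 3 most abundant genes and those past 1.5-fold are named, with T cell, erythroid, muscle and progenitor genes given as counts only. The 5 thymocyte markers and *Myh4* are named for their levels. Alternatives were other folds, minimums, pseudocounts, centring and scaling, and leaving out each library. Leaving out a library in the counts and medians over the 17 genes, and a spread estimated along the mean, were added after the data were seen. Tables were made with Python 3.11.15 and pandas 2.3.3.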

Additional observations from a re-analysis of the deposited data

How the results depend on the processing

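The count of 15 of 39 replication genes past 1.2-fold higher was 28 at a fold of 1.1 (31.3% of all genes) and 0 at a fold of 1.5 (2.78%), and stayed between 10 and 15 with no minimum, a mean of at least 100, a pseudocount of 10 and either centring. The count past the fold lower was 0 under each of these. The median log2 ratio of the 39 genes stayed between 0.16 and 0.21. The median level per kilobase was 244 in wild-type and 282 in Npffr1-KO. Among the 7219 recovered genes, limma's calls, 1 higher and 2 lower, became 3 and 4 with a pseudocount of 5, 2 and 5 with a mean of at least 1, 4 and 4 with a mean of at least 30, and 67 and 69 with the spread estimated along the mean. Leaving out a library gave 0 to 2 higher and 0 to 3 lower. No replication gene was called under any of these settings, with 0 to 2 at an unadjusted p under 0.05.

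Leaving out 1 library moved the median fitted log2 fold change of the 17 genes, 0.18 with all libraries, to between 0.0319 (without Npffr1-KO library A) and 0.24, and to 0.11 without wild-type library B. The median log2 ratio of library means ran from 0.0336 to 0.23, the genes higher in Npffr1-KO from 10 to 16 and those past 1.2-fold from 2 to 8. For these counts, shares of all recovered genes were computed only with all libraries and without Npffr1-KO library A. The fitted log2 fold change changed sign for 7 of the 17, with ranges of -0.12 to 0.21 for *Ccne2*, -0.0284 to 0.33 for *Cdc45*, -0.31 to 0.11 for *Gins3*, -0.35 to 0.12 for *Mcm10*, -0.21 to 0.39 for *Orc1*, -0.11 to 0.10 for *Pola1* and -0.0523 to 0.19 for *Pole2*. With a library left out, its arm has 2 libraries. The 102 fits of single genes under the other settings changed no direction and no call. Other minimums and the spread estimated along the mean leave a gene's fitted fold change as it is. Under those settings no direction could change. No paired analysis was possible because the libraries could not be tied to the sample numbers. The 22 replication genes without recovered reads are given without an error and were not tested here.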
